A study of Mus musculus with 14 samples.

Results

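B cell and plasma cell identity genes were measured in 14 subcutaneous CT26 tumors, in which 9 of the 53801 Ensembl genes of each tumor's table were followed. They were chosen by name, with earlier results of these data known, as genes that define the B cell and the antibody-secreting plasma cell. They were 4 B cell genes (Ms4a1, Cd79a, Cd79b and Pax5) and 5 plasma cell genes (Mzb1, Pou2af1, Tnfrsf17, Prdm1 and Xbp1). All 9 were found in the tables under their Ensembl identifiers. CT26 is a mouse colon carcinoma line, here carrying ClonTracer DNA barcodes, and 250000 cells were placed in each flank of female Balb/c mice that were 6 to 8 weeks old. From day 7 the mice received 5 doses of 200 μg of antibody into the peritoneum, 3 days apart, and tumors were collected 3 days after the last dose. The 5 control IgG tumors came from 4 mice given an isotype control antibody, and the 9 anti-PD1 tumors from mice given an antibody against the T cell inhibitory receptor PD-1. The study classed anti-PD1 tumors by their size at the end of treatment relative to the control median. Responders lay below a lower cutoff and non-responders above a higher one, so that sizes in between were in neither class. The 9 tumors here were 5 responders from 4 mice and 4 non-responders from 3 mice. Response was thus read from the tumor itself, and 3 mice gave both flank tumors, which were counted as separate samples.

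B cells recognize antigen through a surface antibody whose signal passes through a pair of membrane proteins encoded by Cd79a and Cd79b, and their identity is held by the transcription factor Pax5. When a B cell becomes a plasma cell, Prdm1 (the repressor Blimp-1) switches off Pax5 and the B cell program, and Xbp1 expands the secretory pathway through which antibody leaves the cell. In tumors, B cells and plasma cells are found within scattered infiltrates or within lymphoid aggregates, and they are usually a small part of a transplanted mouse tumor.

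Library totals were between 33237744 and 48481461 expected counts, RSEM's estimates of the fragments from each gene. Levels are given as CPM, counts scaled to the library size after TMM normalization, and as TPM where genes are compared with each other, since TPM is per length. The depth limit of 3 counts lay between 0.0596 and 0.095 CPM. Non-responder 33R stood apart from the rest, with a chi-square per gene of 134.7 to 195.7 against the other non-responders, which differed among themselves by 32.78 to 37.74. Skin epidermis markers summed to between 7.73 and 1020 CPM over the 14 tumors.

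The 9 genes divided by how they differed between groups, and this division did not follow the B cell and plasma cell classes as assigned here. Pou2af1 was placed with the plasma cell genes though it is also needed for germinal centers, and Mzb1 though marginal zone B cells use it. Pax5 and Pou2af1 were higher in responders than in both other groups, in every responder tumor. Ms4a1 and Mzb1 were higher in responders than in control IgG tumors, and their values against non-responders missed the threshold. The antigen receptor chains Cd79a and Cd79b, and the plasma cell genes Tnfrsf17, Prdm1 and Xbp1, did not pass the test in any comparison. Of the 9 genes, 2 were called higher among responders than among non-responders at an adjusted p under 0.05 (edgeR's quasi-likelihood test with Benjamini-Hochberg adjustment over the 16287 genes tested), beside 5.08% of all genes tested called higher and 9.9% called in either direction. Against control IgG, 4 of the 9 were called higher, beside 7.88% of all genes called higher and 13.2% called in either direction. Between non-responders and control IgG tumors, edgeR called 0 of the 9 and 0.0% of all genes. These comparisons share tumors and are not independent of each other. Because the 9 genes were chosen with earlier results of these data known, their counts beside these shares are not a test of enrichment. Ms4a1 and Pou2af1, counted among the genes called, passed the filter on low counts only through the responders. Their calls are therefore not separate support for a difference in the 9 genes.

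**Figure D1:**
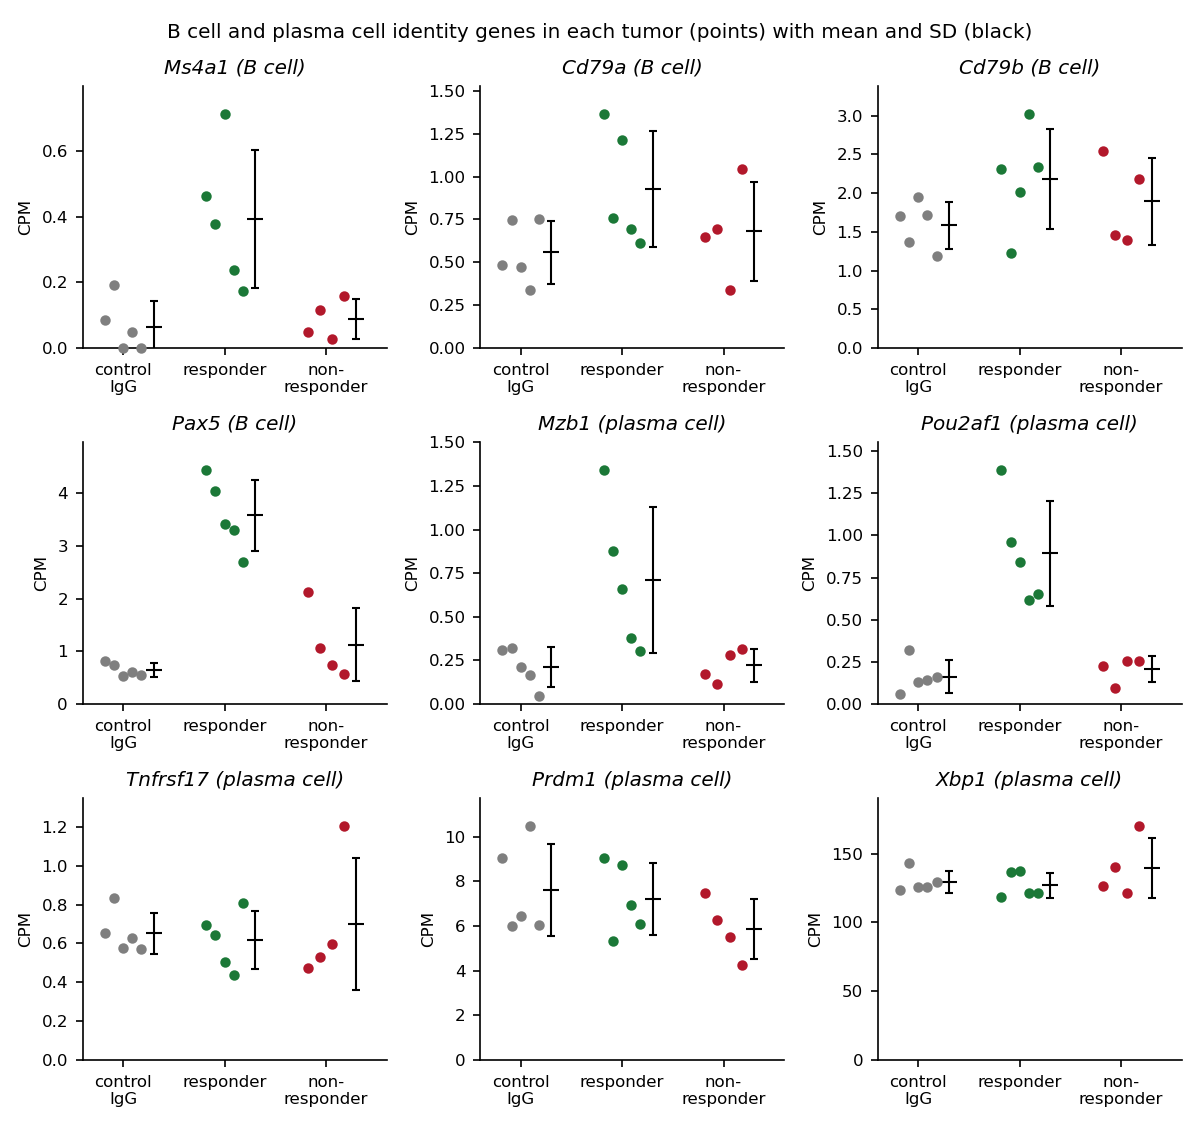
CPM (TMM-scaled, linear axes from 0) of each of the 9 genes in the 5 control IgG, 5 responder and 4 non-responder tumors, with each group's mean and SD in black (bars that reach below 0 end at the axis). All 5 responders lie above all non-responders for Ms4a1, Pax5 and Pou2af1, and these 2 groups overlap for the other 6 genes.

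**Figure D2:**
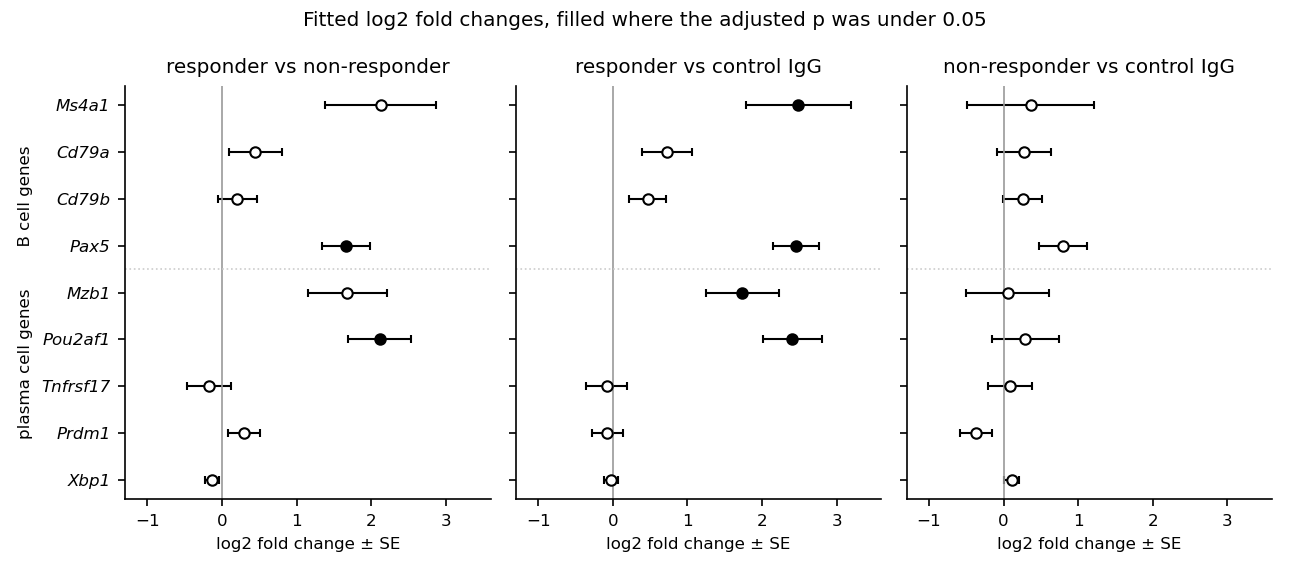
Fitted log2 fold change with its standard error (horizontal axis) of each gene (vertical axis) in the 3 comparisons, filled where the adjusted p of edgeR was under 0.05. Pax5 and Pou2af1 are filled in both comparisons of responders, Ms4a1 and Mzb1 against control IgG, and no gene in the comparison of non-responders with control IgG.

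Pax5 (ENSMUSG00000014030, mm10 chr4:44524757-44710487, minus strand) encodes the paired-box factor that commits a cell to the B lineage and is switched off in plasma cells. In responders 24L, 26R, 30L, 30R and 35L its level was 4.44, 4.05, 3.41, 3.30 and 2.70 CPM, from 124 to 192 counts. In non-responders 29L, 32R, 33L and 33R it was 2.12, 1.07, 0.736 and 0.570 CPM, from 18 to 85 counts. The control IgG tumors 14L, 14R, 16R, 17R and 20R had 0.824, 0.747, 0.526, 0.603 and 0.549 CPM. No responder overlapped with either other group, and non-responder 29L lay between the responders and the remaining non-responders, which were at or near the control range. The exact 95% interval of counting error was 1.69 to 2.62 CPM in 29L and 2.25 to 3.22 CPM in 35L, the lowest responder, so that these intervals overlapped. Pax5 was 3.16-fold higher among responders than among non-responders (log2 fold change 1.66, SE 0.32, adjusted p = 0.0106) and 5.49-fold higher than in control IgG tumors (log2 fold change 2.46, SE 0.31, adjusted p = 0.000575). In non-responders against control IgG its log2 fold change was 0.80 (SE 0.32, adjusted p = 0.931, unadjusted p = 0.0261 from edgeR's fit). This was the only 1 of the 9 genes with an unadjusted p under 0.05 in that comparison, in which 758 of 16287 genes had one, and without 29L the log2 fold change was 0.29.

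Pou2af1 (ENSMUSG00000032053, mm10 chr9:51213708-51240080, plus strand) encodes OCA-B, a coactivator that joins the octamer-binding factors on immunoglobulin promoters and is needed for germinal centers. In the same order of tumors, responders had 1.39, 0.962, 0.845, 0.616 and 0.654 CPM (30 to 60 counts) and non-responders 0.224, 0.0926, 0.255 and 0.253 CPM (4 to 9 counts). Control IgG tumors had 0.0568, 0.320, 0.131, 0.145 and 0.160 CPM, the highest being 14R with 15 counts. The lowest responder was thus above all 9 other tumors, and the tumors outside the responder group were close to the depth limit. Pou2af1 was 4.32-fold higher among responders than among non-responders (log2 fold change 2.11, SE 0.43, adjusted p = 0.0123) and 5.29-fold higher than in control IgG tumors (log2 fold change 2.40, SE 0.40, adjusted p = 0.0021). Among all genes tested, 6.8% had every responder above every non-responder in CPM and 8.34% had every responder above every control IgG tumor, beside 3 and 2 of the 9 genes. Both of these counts include Pou2af1, and the first also Ms4a1, which passed the filter on low counts only through the responders.

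The upstream regions of Pou2af1 and Pax5 are shown because these were the 2 genes called against both groups. RefSeq promoter windows (GRCm38.p6, 250 bases before to 50 after the transcription start) matched 6 of the 9 genes, namely Cd79a, Pax5, Pou2af1, Tnfrsf17, Prdm1 and Xbp1. They were searched on both strands, for exact letters, for the octamer ATGCAAAT, the EBF1 motif TCCCNNGGG, the Prdm1 motif AGNGAAAG, and TGACGTGG, an element of the unfolded protein response that XBP1 binds. The 250 bases before the start are given 5′ to 3′ on the gene's strand, with the single match of each in capitals, for Pou2af1 (chr9:51213440-51213689, plus strand) and for Pax5 (chr4:44710695-44710944, minus strand).
Pou2af1: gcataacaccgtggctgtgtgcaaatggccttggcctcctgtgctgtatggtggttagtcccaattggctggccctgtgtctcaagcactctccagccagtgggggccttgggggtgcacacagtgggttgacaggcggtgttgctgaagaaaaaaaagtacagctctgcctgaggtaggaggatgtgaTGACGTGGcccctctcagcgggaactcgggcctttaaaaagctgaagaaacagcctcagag
Pax5: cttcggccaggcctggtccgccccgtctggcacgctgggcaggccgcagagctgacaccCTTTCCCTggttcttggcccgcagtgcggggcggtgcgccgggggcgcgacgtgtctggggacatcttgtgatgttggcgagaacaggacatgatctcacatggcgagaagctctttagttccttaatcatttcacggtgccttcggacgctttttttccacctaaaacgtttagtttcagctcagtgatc
The capitals in Pou2af1 are TGACGTGG, beginning 61 bases before the start, a motif that 0.676% of the 32851 RefSeq promoter windows hold. The capitals in Pax5 are the reverse complement of the Prdm1 motif, beginning 191 bases before the start, and 8.63% of all windows hold this motif. The octamer, held by 1.74% of windows, and the EBF1 motif, held by 6.56%, had no exact match in the 6 windows. A match describes the letters of the window and was not tested as a binding site.

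Ms4a1 (ENSMUSG00000024673, mm10 chr19:11249675-11266241, minus strand) encodes CD20, a surface protein of mature B cells that is lost in plasma cells. Responders had 20, 13, 27, 12 and 8 counts (0.463, 0.379, 0.713, 0.238 and 0.174 CPM), non-responders 2, 5, 1 and 5 counts (0.0498, 0.116, 0.0283 and 0.158 CPM), and control IgG tumors 3, 9, 0, 2 and 0 counts. The count of 0 in control tumors 16R and 20R had exact 95% upper bounds of 0.0969 and 0.0843 CPM, where 3 counts make up 0.0788 and 0.0686 CPM. All responders were above all non-responders, but the lowest responder 35L and the highest non-responder 33R differed by less than their counting intervals of 0.0753 to 0.344 and 0.0514 to 0.370 CPM. Control tumor 14R, at 0.192 CPM, was also above 35L. The fold change against non-responders was 4.36 (log2 fold change 2.13, SE 0.74) and missed the threshold with an adjusted p of 0.0802. It passed with mouse as a random effect in limma-voom (adjusted p = 0.0434), but not with the counts of each mouse summed (adjusted p = 0.0906). Against control IgG tumors Ms4a1 was 5.62-fold higher (log2 fold change 2.49, SE 0.70, adjusted p = 0.03), and this call was lost when control tumor 16R, 17R or 20R was left out, with adjusted p values of up to 0.0678. Without responder 24L, 26R, 30L or 30R, Ms4a1 did not pass the filter on low counts and was not tested.

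Mzb1 (ENSMUSG00000024353) encodes a chaperone of the endoplasmic reticulum that helps assemble antibody in marginal zone B cells and plasma cells, and plasmacytoid dendritic cells express it too. Responders had 1.34, 0.875, 0.661, 0.377 and 0.305 CPM (14 to 58 counts), non-responders 0.174, 0.116, 0.283 and 0.317 CPM (5 to 10 counts), and control IgG tumors 0.312, 0.320, 0.210, 0.169 and 0.0457 CPM (2 to 15 counts). Responders 24L, 26R, 30L and 30R were above every tumor of the other groups, 30R by the least, and 35L lay within the range of the non-responders. Mzb1 was 3.33-fold higher in responders than in control IgG tumors (log2 fold change 1.74, SE 0.49, adjusted p = 0.0312), which was lost without 16R, 17R, 20R, 24L or 26R, with adjusted p values of up to 0.102. Against non-responders its log2 fold change was 1.68 (SE 0.53) with an adjusted p of 0.0593, and it passed the threshold without control tumor 20R or responder 35L.

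Ms4a1 and Pou2af1 entered the fit through the responders. A gene was tested where at least 4 tumors had 0.242 CPM or more before TMM scaling, and Ms4a1 reached this in 4 responders alone, while Pou2af1 reached it in 5 responders, 1 control IgG tumor and 1 non-responder. The other 7 genes would have passed without the responders, Mzb1 with 2 control IgG tumors and 2 non-responders. Without any filter the log2 fold changes against non-responders were 2.14 for Ms4a1 (adjusted p = 0.117) and 2.12 for Pou2af1 (adjusted p = 0.0131).

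Cd79a (ENSMUSG00000003379, mm10 chr7:24897381-24902197, plus strand) and Cd79b (ENSMUSG00000040592, mm10 chr11:106311341-106314762) encode the signaling chains of the B cell receptor, which B cells keep at every stage up to the plasma cell. Cd79a was 0.929 ± 0.338 CPM (SD, n = 5) among responders, 0.682 ± 0.289 (n = 4) among non-responders and 0.559 ± 0.184 (n = 5) in control IgG tumors. Its highest tumors were responders 24L and 30L at 1.36 and 1.22 CPM, and the remaining 3 responders, at 0.611 to 0.758 CPM, lay within the range of the other groups. Cd79b was 2.18 ± 0.650, 1.89 ± 0.563 and 1.58 ± 0.302 CPM in the same groups, highest in responder 30R at 3.02 CPM and, among responders, lowest in 26R at 1.22 CPM. The log2 fold changes of responders against non-responders were 0.45 (SE 0.35, adjusted p = 0.438) for Cd79a and 0.21 (SE 0.26, adjusted p = 0.642) for Cd79b. Against control IgG tumors they were 0.72 (SE 0.33, adjusted p = 0.173) and 0.47 (SE 0.25, adjusted p = 0.235). The 2 chains had a Pearson r of 0.24 with each other in log2 CPM over the 14 tumors, and of 0.01 for deviations from group means. Ms4a1 and Mzb1 had an r of 0.82 (0.58 within groups) and Pax5 and Pou2af1 of 0.84 (0.02 within groups). These values are descriptions over tumors that share depth and group differences.

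Tnfrsf17 (ENSMUSG00000022496, mm10 chr16:11313812-11320074) encodes BCMA, the receptor through which plasma cells receive the survival factor APRIL. It was 0.616 ± 0.148 CPM (SD, n = 5) among responders, 0.701 ± 0.339 (n = 4) among non-responders and 0.652 ± 0.106 (n = 5) in control IgG tumors, from 19 to 39 counts in every tumor. Non-responder 33R had 1.20 CPM and the other non-responders 0.473 to 0.595 CPM. The log2 fold change of responders against non-responders was -0.18 (SE 0.30, adjusted p = 0.742), and its direction was not stable. It was 0.22 without 33R and, with 33R kept, 0.02 with counts summed per mouse, 0.06 with a gene length offset and 0.07 to 0.11 on the TPM scales. In each group the spread between tumors was not far above counting error except for 33R, since the coefficient of variation was 16.3% in control IgG tumors and 24.1% in responders where counting alone gives 19.2% and 19.6%.

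Prdm1 (ENSMUSG00000038151, mm10 chr10:44437177-44528501) encodes Blimp-1, which T cells, macrophages and epidermal cells also express. It was 7.22 ± 1.61 CPM (SD, n = 5) among responders, 5.87 ± 1.35 (n = 4) among non-responders and 7.60 ± 2.04 (n = 5) in control IgG tumors, and the groups overlapped. The highest tumor was control 17R at 10.5 CPM and the lowest non-responder 33R at 4.25 CPM. Its log2 fold change of responders against non-responders was 0.30 (SE 0.22, adjusted p = 0.402). Xbp1 (ENSMUSG00000020484, mm10 chr11:5520659-5525893), whose protein most secreting cells use, was 127.2 ± 8.97 CPM among responders, 139.6 ± 21.9 among non-responders and 129.5 ± 7.92 in control IgG tumors, from 4291 to 6711 counts. Non-responder 33R was at 170.1 CPM of Xbp1 and the other non-responders at 121.5 to 140.6 CPM. The log2 fold change of Xbp1 in responders against non-responders was -0.13 (SE 0.10, adjusted p = 0.381). It lay between -0.18 and -0.01 with 1 tumor left out. On the TPM scale responders had 84.5 to 94.4 TPM and non-responders 81.0 to 84.8 TPM, with 35L below 32R. The log2(TPM + 1) difference was 0.13 and did not pass the test (adjusted p = 0.108), where the median of all genes was itself shifted by 0.17.

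Per length, Xbp1 was by far the highest of the 9 genes in each group, at 90.1, 82.2 and 82.9 TPM on average in responders, non-responders and control IgG tumors. Prdm1, Cd79b and Tnfrsf17 followed, with group means from 1.33 to 2.73 TPM and ranges that overlapped between neighbors in each group's order. Ms4a1 was lowest in each group, at 0.178 ± 0.0942 TPM among responders, 0.03 ± 0.0183 among non-responders and 0.026 ± 0.0297 in control IgG tumors. Pax5 and Pou2af1, at 0.096 and 0.098 TPM in control IgG tumors, were at 0.60 and 0.53 TPM in responders, still under the mean of Cd79a at 0.99 TPM, with overlapping ranges. Cells of other types that express Xbp1 or Prdm1 could not be separated in these bulk tumors. For every gene, more cells of a type and more RNA per cell cannot be told apart in bulk samples.

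**Figure D3:**
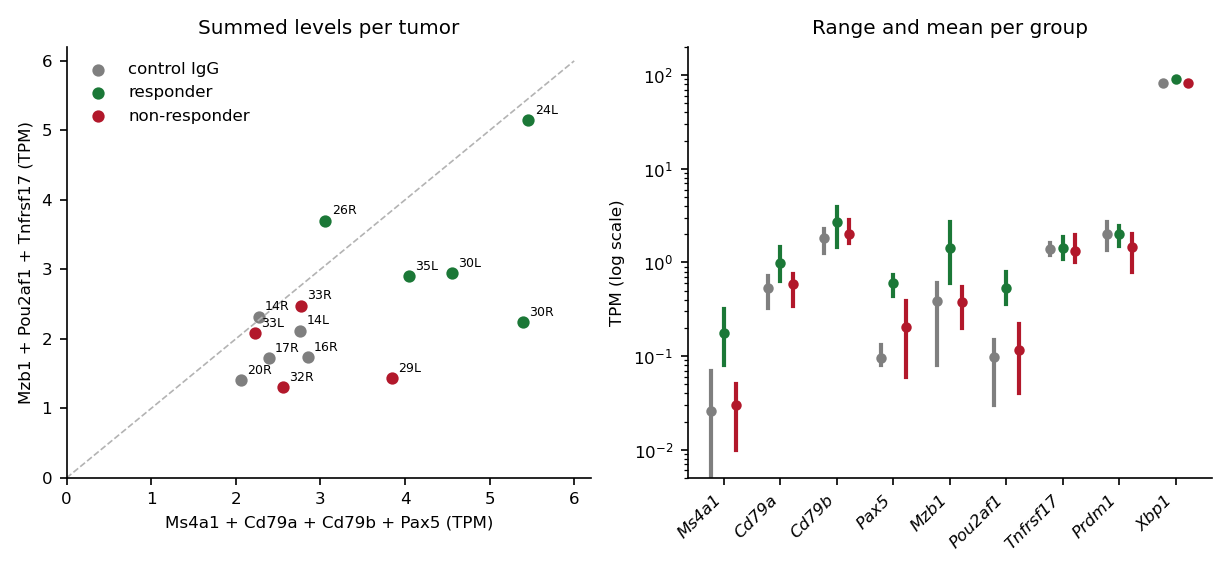
Left, the summed TPM of Mzb1, Pou2af1 and Tnfrsf17 against that of the 4 B cell genes in each labelled tumor, with a dashed line of equal sums. Right, the range (bar) and mean (point) of each gene's TPM per group on a log scale whose lower end is 0.005, where the control IgG range of Ms4a1 extends down to 0. Responders reach 5.46 TPM of B cell genes and 5.15 TPM of plasma cell genes in 24L, and Xbp1 lies above 80 TPM in every group.

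The B cell genes were next set against the plasma cell genes within each tumor. Prdm1 and Xbp1 were left out of the sum, since many other cells express them. The plasma cell sum thus rests on Mzb1, Pou2af1 and Tnfrsf17, of which Mzb1 and Pou2af1 also act in B cells. The B cell sum was 4.50 ± 0.999 TPM (SD, n = 5) among responders, 2.85 ± 0.701 (n = 4) among non-responders and 2.47 ± 0.333 (n = 5) in control IgG tumors, and the sum of Mzb1, Pou2af1 and Tnfrsf17 was 3.39 ± 1.11, 1.83 ± 0.550 and 1.86 ± 0.359 TPM. The ratio of plasma cell to B cell sums was 0.787 ± 0.302, 0.679 ± 0.278 and 0.761 ± 0.156, so that the means differed by less than the SD within a group. It ranged within responders from 0.416 in 30R to 1.21 in 26R. The sums were mostly 1 gene each outside the responders, since Cd79b made up 72.4% and 71.2% of the B cell sum in control IgG tumors and non-responders, and Tnfrsf17 74.8% and 73.4% of the plasma cell sum. In responders these shares were 59.9% and 44.4%, while Pax5 made up 13.9% of the B cell sum against 3.91% in control IgG tumors. With Tnfrsf17 left out, a choice made after seeing the data, the ratio was 0.449 ± 0.229 among responders, 0.185 ± 0.113 among non-responders and 0.195 ± 0.0756 in control IgG tumors, with overlap between the groups. With Prdm1 and Xbp1 added, the ratio was lowest in responders, at 22.3, against 31.2 for non-responders and 35.7 for control IgG, because Xbp1 then made up nearly the whole plasma cell sum. No test was run on these sums.

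Both flanks were available from mouse 14 (control IgG), mouse 30 (responder) and mouse 33 (non-responder). Pax5 differed little between the flanks of mouse 30, with 3.41 CPM on the left and 3.30 CPM on the right, while Ms4a1 was at 0.713 and 0.238 CPM and Mzb1 at 0.661 and 0.377 CPM. Pou2af1 was at 0.255 and 0.253 CPM in the flanks of mouse 33 and at 0.0568 and 0.320 CPM in those of mouse 14. With 1 mouse per group these differences have no replicate check.

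Other genes of the lineage also differed in direction. For the list counts that follow, 5.08% of all genes tested were called higher among responders than among non-responders. Of 14 B cell surface and receptor signaling genes 8 could be tested, and among those too low to be tested Cr2, Fcer2a, Fcmr, Blk and Vpreb3 had at most 13 counts in any tumor. In responders against non-responders, Cd22, an inhibitory receptor of B cells, was higher (log2 fold change 1.01, SE 0.19, adjusted p = 0.0102), and Fcrla, an intracellular Fc receptor-like protein of B cells, was higher (0.89, SE 0.26, adjusted p = 0.0455). Bank1, a scaffold of B cell receptor signaling, was lower (-0.82, SE 0.16, adjusted p = 0.0102). Bank1 was at 1.69 to 2.17 CPM among responders, 2.89 to 4.25 CPM among non-responders and 2.58 to 3.41 CPM in control IgG tumors, so that every responder was below every other tumor. Cd72, Blnk and Btk, which macrophages also express, did not pass the test. The median log2 fold change of the 8 was 0.32, beside 0.01 over all genes tested.

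Of 7 B cell transcription factors outside the 9 genes, 3 were higher among responders than among non-responders and 0 lower. They were Spib (log2 fold change 1.21, adjusted p = 0.0303), which plasmacytoid dendritic cells also use, Pou2f2 (0.62, adjusted p = 0.0308), which encodes an octamer-binding partner of the Pou2af1 protein, and Spi1 (0.33, adjusted p = 0.042), which macrophages express strongly. Ebf1, which acts with Pax5 in B cell commitment and is also expressed in stromal cells, had a log2 fold change of 0.18 (SE 0.25, adjusted p = 0.678). Of 5 germinal center genes 3 were tested, and 2 were called higher and 0 lower among responders than among non-responders. Gcsam, a germinal center signaling gene, was at 1.51 to 2.01 CPM among responders, 0.695 to 1.45 CPM among non-responders and 0.594 to 1.36 CPM in control IgG tumors. Responders exceeded non-responders by 0.90 (SE 0.27, adjusted p = 0.0455) on the log2 scale, and every responder was above every other tumor. S1pr2 was not called (0.05, adjusted p = 0.672). It was far above Gcsam, at 63.0, 60.7 and 57.3 CPM on average in responders, non-responders and control IgG tumors. Which cells it came from was not tested. Mef2b and Rgs13 were too low to be tested. Their means were lower among responders, at 0.131 and 0.0922 CPM, than among non-responders, at 0.208 and 0.161 CPM.

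Of 12 further genes listed for plasma cells 10 were tested. Between responders and non-responders 4 were called higher and 0 lower, beside 5.08% of all genes tested called higher. Irf4, a factor that plasma cells and activated T cells require, was at 2.97 to 3.77 CPM among responders, 0.824 to 1.77 CPM among non-responders and 0.640 to 1.90 CPM in control IgG tumors (log2 fold change 1.25, SE 0.28, adjusted p = 0.0175). Jchain, which encodes the joining chain of secreted IgM and IgA, was at 12.6, 12.1, 7.21, 3.06 and 3.73 CPM among responders, 0.278 to 1.81 CPM among non-responders and 0.160 to 1.90 CPM in control IgG tumors (log2 fold change 2.62, SE 0.70, adjusted p = 0.0332). Its highest responders, 24L and 26R, were also those with the most Mzb1. Slamf7 (1.43, adjusted p = 0.0211) and Cd38 (0.86, adjusted p = 0.0132), listed here though other immune cells express these surface proteins, were higher too. Cd38 was at 37.03, 20.39 and 16.45 CPM on average in responders, non-responders and control IgG tumors. Which cells it came from was not tested. Sdc1, the plasma cell marker CD138 that epithelial cells also express, was at 50.7 to 61.4 CPM among responders, 45.8 to 54.7 CPM among non-responders and 43.6 to 54.8 CPM in control IgG tumors, and it did not pass the test (log2 fold change 0.15, adjusted p = 0.266). Fkbp11, Ell2, Sec11c and Txndc5 went the other way, at -0.39, -0.28, -0.25 and -0.17 on the log2 scale, and were not called. The median of the 10 genes was 0.15.

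Of 12 genes of the unfolded protein response, through which Xbp1 acts, 0 were higher and 1 was lower, the stress-induced factor Ddit3 (log2 fold change -0.94, adjusted p = 0.018), and the median of the 12 was -0.03. Of the BAFF and APRIL ligands and receptors and the chemokine axis of B cells, 4 of 6 were tested and 0 were called between responders and non-responders, among them Tnfsf13b, which encodes BAFF (0.50, adjusted p = 0.152), and Cxcl13, the chemokine of B cell follicles (0.18, adjusted p = 0.836). Tnfrsf13c, the BAFF receptor of B cells, and Cxcr5, the receptor for Cxcl13, had at most 7 and 16 counts and were not tested. Against control IgG tumors, Tnfsf13, which encodes APRIL, was higher in responders (0.45, SE 0.13, adjusted p = 0.0375), as were Cd37, a leukocyte tetraspanin (0.49, adjusted p = 0.0196), Cd40, the receptor for T cell help (0.80, adjusted p = 0.0467), and the factor Irf8 (0.63, adjusted p = 0.0188). In the same comparison Ell2, an elongation factor used in making secreted antibody, was lower (-0.38, adjusted p = 0.046). The rise of Tnfsf13 was not particular to responders, since every non-responder was also above every control IgG tumor. Its log2 fold change in edgeR was 0.41 in non-responders against control IgG (adjusted p = 0.931) and 0.05 in responders against non-responders (adjusted p = 0.865). Between non-responders and control IgG tumors 0 genes of these lists were called by edgeR or limma-voom, with 758 and 702 genes of all tested at an unadjusted p under 0.05. DESeq2 called 16 genes in that comparison and 0 of the 9. In that comparison 0.718% of all genes had every non-responder above every control IgG tumor, beside 0 of the 9.

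**Figure D4:**
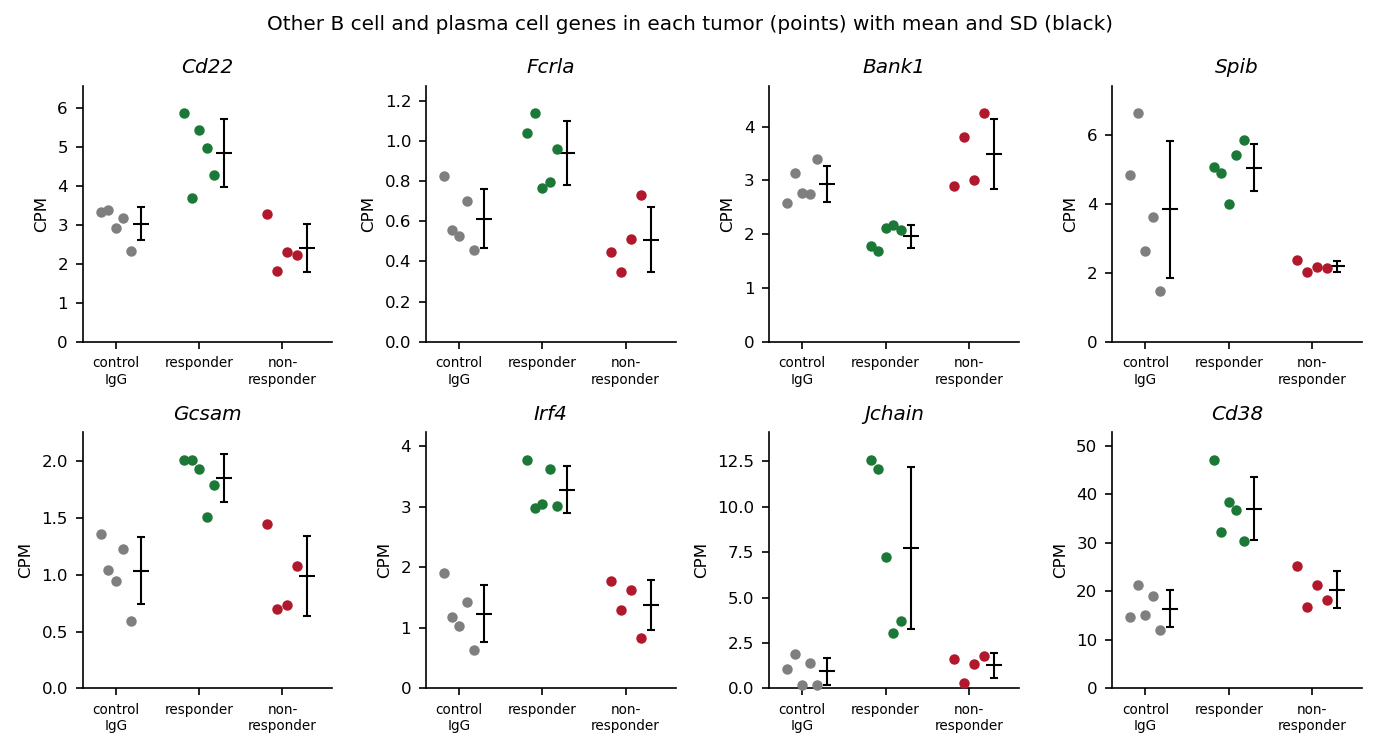
CPM (linear axes from 0) of 8 genes outside the 9 in each control IgG, responder and non-responder tumor, with the mean and SD of each group in black (bars that reach below 0 end at the axis). Cd22, Gcsam, Irf4, Jchain and Cd38 are higher in all 5 responders than in every other tumor, and Bank1 is lower in all 5.

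Most T cell markers were also higher in responders. Plasmacytoid dendritic cell markers were called in both directions, while of the macrophage, skin epidermis and lymph node markers only Adgre1 was called. The share of all genes tested that were called higher among responders than among non-responders was 5.08%, and 9.9% were called in either direction. Of 8 T cell markers 7 were called higher among responders than among non-responders, and their summed CPM was 55.2 to 102.0 among responders, 31.1 to 38.7 among non-responders and 25.0 to 53.1 in control IgG tumors. Of 8 macrophage markers 1 was called higher (Adgre1), with sums of 1660 to 1980, 1340 to 1650 and 1460 to 1710 CPM. Of 6 plasmacytoid dendritic cell markers 2 were higher (Siglech and Klk1) and 1 lower (Cox6a2), with sums of 141.2 to 159.1, 97.5 to 167.5 and 124.4 to 173.9 CPM. These sums were mostly Tcf4 and Runx2, at 99.0 and 47.7 CPM on average in control IgG tumors. Siglech, Ccr9 and Klk1 were at 1.40, 1.10 and 1.625 CPM there, so the sums say little about them. Ccr9 had a log2 fold change of 0.86 but was not called (adjusted p = 0.091). Of 7 lymph node stroma and vessel markers only 2 could be tested and 0 were called, and Glycam1 and Madcam1, which mark its vessels, had at most 5 counts in any tumor. Skin epidermis markers gave 0 of 8. The part of these cells in the levels of the 9 genes was not tested.

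Genes outside the 9 were ranked by their Pearson r with these patterns over the 14 tumors in log2 CPM. The mean standardized level of the 4 B cell genes was most like that of Bst1 (r = 0.95), Ly6a (0.95), Ly6c1 (0.95), Aldh1b1 (0.94) and Gzmk (0.94). Mzb1, Pou2af1 and Tnfrsf17 together were most like Gm8126 (r = 0.95), Birc2 (0.93), Ccl8 (0.92), Gm18852 (0.90) and A2m (0.89). The nearest genes to Prdm1 were Sik3, Fosl2, Tnr, Rhbdf2 and Rbm5 (r = 0.83 to 0.85), and those to Xbp1 were Naa38, Psmb1, Lamtor5, Ostf1 and Mrps23 (r = 0.96 to 0.97). The 4 lists of nearest genes had no gene in common. These are the highest values of all genes tested and describe these tumors only.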

How the data were processed

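RNA of 14 CT26 tumors was sequenced as oligo(dT)-selected libraries, and groups were taken from the sample labels. Reads were mapped by the authors to mm10 with STAR (v2.5), and RSEM with default parameters gave the gene values. The methods say so for cell lines, and point back to this for tumors. Whether counting used strand is not given in the sources used here. The expected counts deposited by the authors were not normalized. The TPM values deposited by the authors are scaled by effective length and to a fixed total. The FPKM values deposited by the authors were not used. Expected counts were rounded and tested for 16287 genes in R 4.3.3 with edgeR 4.0.16 (TMM, filterByExpr with a minimum count of 10, quasi-likelihood test, Benjamini-Hochberg adjustment), with all 14 tumors and no covariates, after the scripts were tested on simulated data. The call threshold was an adjusted p of 0.05. Log2 CPM used a prior count of 2. TPM was tested as log2(TPM + 1), which understates changes of low genes.

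The 9 genes, the lists and the rule for named genes (each of the 9, listed genes past the threshold or defining a cell type, and the 5 most alike per pattern) were chosen with earlier results of these data known. Ddit3 has more than 1 identifier, of which the one with most counts was used. Alternatives were DESeq2 1.42.0, limma 3.58.1 (voom, alone or with a random effect of mouse), other scaling factors, a gene length offset, counts summed per mouse, only the groups compared, no filter, TPM, and leaving out each tumor. Within groups, 2 tumors differed by a chi-square per gene of at least 21.24, far above sampling noise, so all were kept. Flanks of 1 mouse are not separate animals, so p values may be too small. Exact (Clopper-Pearson) 95% intervals and the limit of 3 counts cover counting error only. Results of some listed genes are not reported here.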

Additional observations from a re-analysis of the deposited data

Results flagged for a closer look

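Among the 9 genes 2 values lay far from the rest of their group by Dixon's test at the 95% level, of 27 groups checked. Chance flags about 1 in 20 groups. Tnfrsf17 in non-responder 33R was at 1.204 CPM (38 counts), and the other non-responders were at 0.4733 to 0.5948 CPM. Xbp1 in control IgG tumor 14R was at 143.3 CPM, and the other control IgG tumors were at 123.9 to 129.2 CPM. On the TPM scale 14R had 84.8 TPM of Xbp1, within the 80.5 to 85.6 TPM of the other control IgG tumors, and 33R had 1.94 TPM of Tnfrsf17, against 1.01 to 1.32 TPM in the other non-responders.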

How the results depend on the processing

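Pax5 and Pou2af1 were higher in responders than in both other groups under each of the 11 alternatives and without each tumor, with adjusted p values from 1.56e-05 to 0.0372 for Pax5 and from 0.000183 to 0.0414 for Pou2af1 against non-responders. Pou2af1 passed the filter on low counts only through the responders, so its calls are not separate support. Of the 9 genes, 2 were called against non-responders, and 4 (Ms4a1 and Mzb1 added) by DESeq2, by log2(TPM + 1) and by log2(TPM + 0.1). Ms4a1 alone was added by voom with mouse as a random effect, though not with counts summed per mouse (adjusted p = 0.0906), and Mzb1 alone by the gene length offset. Leaving out 1 tumor gave 2 to 3 calls against non-responders and 2 to 4 against control IgG, 2 without 16R, 17R, 20R, 24L or 26R, and 2 and 4 without 33R. Without 24L, 26R, 30L or 30R, Ms4a1 did not pass the filter. On the log2(TPM + 0.1) scale the median of all genes differed by 0.235 between responders and non-responders, 0.117 between responders and control IgG, and -0.107 between non-responders and control IgG.

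Over all genes, 1612 were called between responders and non-responders, 2559 with DESeq2, 2973 with voom and mouse as a random effect, 689 with only the groups compared, and 569 to 1978 without 1 tumor (lowest without 24L, 30R, 32R or 33R). Against control IgG, 2147 were called in responders, and 1190 to 3385 without 1 tumor (lowest without 20R, then 24L and 30R, highest without 33R). In non-responders 0 were called against control IgG, 16 with DESeq2, 3 without a filter, and 0 to 5 without 1 tumor. The log2 ratio of plasma cell to B cell sums was higher by 0.2245 in responders than in non-responders, by -0.4983 with Prdm1 and Xbp1 added and by 1.306 with Tnfrsf17 left out, an alternative chosen after seeing the data. Without 1 tumor it was between -0.02797 (without 29L) and 0.432.

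Only genes without a call changed direction. Between responders and non-responders, Tnfrsf17 moved from -0.1756 to 0.01955 with counts summed per mouse, 0.06173 with the length offset, 0.066 with log2(TPM + 1) and 0.1123 with log2(TPM + 0.1), and Xbp1 to 0.13 and 0.1313 on the TPM scales. Between responders and control IgG, Tnfrsf17 moved to 0.02086, 0.02959, 0.02614 and 0.03474 in the same order, and on the TPM scales Prdm1 to 0.01747 and 0.03053 and Xbp1 to 0.1175 and 0.1188. Between non-responders and control IgG, Tnfrsf17 moved to -0.02179 with voom, -0.03215 with the length offset, and -0.03986 and -0.07754 on the TPM scales, Mzb1 to -0.02832 with the length offset and -0.003992 with log2(TPM + 1), and Xbp1 to -0.01243 and -0.01257 on the TPM scales. Without 1 tumor, Tnfrsf17 ranged from -0.325 to 0.2223 against non-responders and from -0.2018 to 0.02429 in responders against control IgG, Prdm1 from -0.1671 to 0.07571 and Xbp1 from -0.05534 to 0.01623. In non-responders against control IgG the ranges were -0.0266 to 1.356 for Ms4a1, -0.007043 to 0.4894 for Cd79a, -0.2054 to 0.2795 for Mzb1, -0.3056 to 0.2403 for Tnfrsf17 and -0.01422 to 0.1605 for Xbp1. The causes were not tested. No paired analysis was possible because the groups share no replicate numbers. At this depth Ms4a1 rested on few counts, and differences near 3 counts were not detectable.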
